A study of Mus musculus with 6 samples.

Results

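The 7 genes described here encode ligands of the tumour necrosis factor family: the lymphotoxins Lta and Ltb, Tnf itself, Tnfsf4 (OX40 ligand), Tnfsf8 (CD30 ligand), Tnfsf9 (4-1BB ligand) and Tnfsf11 (RANK ligand). They were taken by gene symbol from the platform annotation, and each was read by 1 feature, so that they make up 7 of the 21542 features with exactly 1 gene symbol. The arrays measured mature mouse splenic B cells in 3 groups. The MYD88_L265P group was transduced with a retrovirus carrying MYD88 with the L265P substitution, the IKK_K171E group with a vector carrying IKK with the K171E substitution, and the EV group with the empty GFP vector. The IKK subunit is not named in the labels, and neither are the strain and age of the mice or the viral promoter. Cells of every group were activated before infection, held with mitogen for 36 hours and then without it for 24 hours, with anti-CD40 named as the withdrawn stimulus, and EGFP+ cells were sorted. All groups therefore share the activation, the infection and the sort. Each group had 2 Affymetrix mouse ST 1.0 arrays, called biological replicates in the labels, and values are the authors' log2 signal per feature.

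Ligands of this family are made as trimers at the cell surface, from which some are shed, and they act on receptors that recruit TRAF adaptors to switch on NF-kB and, through death domains, cell death. Lymphotoxin alpha is secreted as a homotrimer that binds the TNF receptors, or is held at the membrane by lymphotoxin beta in a heterotrimer that binds the lymphotoxin beta receptor. B cells are a main source of this heterotrimer and of TNF in the spleen, where both are needed for follicular dendritic cell networks. OX40 ligand, CD30 ligand and 4-1BB ligand are costimulators of T cells, and RANK ligand drives osteoclast formation and lymph node development. Several of these genes, Lta, Ltb and Tnf among them, are known NF-kB targets.

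Lta, Ltb and Tnf lie side by side in the MHC region, in the order Ltb, Tnf, Lta on mouse chromosome 17. Their promoters are shown because the signals of the 3 genes were all lower in MYD88_L265P than in both other groups. The sequences are those of RefSeq on GRCm38.p6, from 250 bases before to 50 bases after the start of transcription, at chr17:35194257-35194556 on the plus strand for Ltb, chr17:35201958-35202257 on the minus strand for Tnf and chr17:35205302-35205601 on the minus strand for Lta. Capitals mark matches, on either strand, to the kB consensus, to TATAAA or to GGAAGT, the core of many ETS factor sites.
Ltb: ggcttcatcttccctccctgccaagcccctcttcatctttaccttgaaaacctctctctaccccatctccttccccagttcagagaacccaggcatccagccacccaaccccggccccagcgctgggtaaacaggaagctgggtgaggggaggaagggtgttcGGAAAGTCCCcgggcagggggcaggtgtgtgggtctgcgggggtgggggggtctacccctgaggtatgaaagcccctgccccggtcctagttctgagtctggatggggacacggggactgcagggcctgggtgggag
Tnf: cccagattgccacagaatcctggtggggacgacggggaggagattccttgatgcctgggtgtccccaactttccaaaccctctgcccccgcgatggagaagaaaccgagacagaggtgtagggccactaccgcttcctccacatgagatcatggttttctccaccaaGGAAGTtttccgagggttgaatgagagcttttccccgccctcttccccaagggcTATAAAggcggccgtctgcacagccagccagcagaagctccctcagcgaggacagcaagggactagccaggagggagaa
Lta: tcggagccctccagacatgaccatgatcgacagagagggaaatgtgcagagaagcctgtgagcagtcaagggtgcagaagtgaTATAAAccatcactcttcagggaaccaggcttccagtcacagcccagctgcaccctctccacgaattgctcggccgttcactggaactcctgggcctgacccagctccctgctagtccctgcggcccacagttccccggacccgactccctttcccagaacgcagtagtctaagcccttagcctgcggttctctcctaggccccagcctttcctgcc
The run in capitals in Ltb is the kB consensus on the opposite strand and begins 87 bases before the start. In Tnf the capitals are GGAAGT, 83 bases before the start, and TATAAA, 29 bases before it, and in Lta they are TATAAA, 167 bases before the start. No motif matches overlap in these windows. The table held such a window for 5 of the 7 ligand genes (Lta, Ltb, Tnf, Tnfsf8 and Tnfsf11). The kB consensus was present in 1 of these 5 and in 8.46% of all 32851 promoter windows, TATAAA in 3 of the 5 and in 13.6% of all, GGAAGT in 1 of the 5 and in 23.8% of all, and TGANTCA, the AP-1 consensus, in 0 of the 5 and in 7.81% of all. A match is a run of letters and not a measured binding site.

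The constructs were read first as a check of the labels. Myd88 had a log2 signal of 12.25 and 12.31 in MYD88_L265P, 9.43 and 9.14 in IKK_K171E, and 9.30 and 9.35 in EV. Ikbkb, the gene of the IKK beta subunit, had 11.35 and 10.68 in IKK_K171E, 9.69 and 9.68 in MYD88_L265P, and 9.98 and 10.22 in EV, and the increase of 0.91 over EV on the log2 scale in IKK_K171E missed the threshold (limma adjusted p = 0.0848). The B cell genes Ms4a1, Cd79a, Cd79b, Cd22, Pax5, Cr2 and Blnk had log2 signals between 9.96 and 12.91 on the 6 arrays. The summed signal of these 7 genes was itself ordered by group, at 14.41 to 14.42 on the log2 scale in MYD88_L265P, 14.60 to 14.69 in IKK_K171E and 14.88 to 14.91 in EV. Among them Cr2 (-1.31, adjusted p = 0.00824), Cd22 (-0.78, adjusted p = 0.00761) and Cd79b (-0.67, adjusted p = 0.00789) fell in MYD88_L265P against EV, Cd22 fell in IKK_K171E against EV (-0.64, adjusted p = 0.0416), and Cr2 was lower in MYD88_L265P than in IKK_K171E (-1.33, adjusted p = 0.0216). Among all features 7.33% were called lower in MYD88_L265P against EV, 0.413% in IKK_K171E against EV and 0.877% in MYD88_L265P against IKK_K171E. In cells taken in bulk, fewer cells that express a gene and less RNA of it per cell cannot be told apart.

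MYD88_L265P was compared with EV to ask what the mutant adaptor does to expression once the mitogen is gone. Lta, Ltb, Tnf and Tnfsf11 fell in MYD88_L265P, the lymphotoxin genes by about the same amount on the log2 scale (1.03 and 0.97) and the others by less. Tnfsf4, Tnfsf8 and Tnfsf9 did not pass the test. By limma with Benjamini-Hochberg adjustment over all 21542 features, 4 of the 7 ligand genes were lower and 0 higher (also 0 higher at an unadjusted p under 0.05), beside 7.33% of all features lower and 9.32% higher. The median log2 fold change of the 7 genes was -0.33 and that of all features -0.11.

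Lta, which encodes the subunit found in both lymphotoxin trimers, had log2 signals of 8.32 and 8.12 in MYD88_L265P, against 8.92 and 9.58 in EV. The groups did not overlap, although the EV arrays lay further apart (0.67) than those of all but 2.00% of features. The log2 fold change was -1.03 (SE 0.20, adjusted p = 0.0195), a 2.04-fold lower signal, and 0.399% of all features had a lower fold change.

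Ltb, the membrane anchor of the heterotrimer, followed with 8.69 and 8.73 in MYD88_L265P, against 9.24 and 10.11 in EV. Here too the lower EV array was replicate 1 and the groups did not overlap. The log2 fold change was -0.97 (SE 0.25, adjusted p = 0.0409), with 0.529% of all features below it. Leaving out EV replicate 1 gave -1.40, and leaving out EV replicate 2 gave -0.54.

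Tnf, whose product acts as a soluble and a membrane cytokine, had 8.51 and 8.40 in MYD88_L265P, against 8.96 and 8.89 in EV, where the arrays were close. Its log2 fold change was -0.47 (SE 0.11, adjusted p = 0.0301), with 4.25% of all features below it. Tnfsf11, the gene of RANK ligand, had 8.37 and 8.34 in MYD88_L265P, against 8.70 and 8.68 in EV. Replicates of Tnfsf11 agreed closely and the change was small, at -0.33 (SE 0.092, adjusted p = 0.0492), just inside the threshold. A lower fold change was seen for 11.2% of all features.

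The 3 genes that did not pass were ligands of costimulatory receptors. Tnfsf4 had 7.45 and 6.99 in MYD88_L265P, against 7.60 and 7.43 in EV, with overlapping groups and a log2 fold change of -0.30 (95% interval -0.66 to 0.060, adjusted p = 0.186). Tnfsf9 had 7.39 and 7.02 in MYD88_L265P, against 7.37 and 7.28 in EV (-0.12, 95% interval -0.64 to 0.40, adjusted p = 0.695). Tnfsf8 had 7.23 and 7.32 in MYD88_L265P, against 7.35 and 7.04 in EV (0.076, 95% interval -0.32 to 0.48, adjusted p = 0.748). The intervals leave room for changes of up to 0.66 on the log2 scale, so that equal expression was not shown. Lta, Ltb, Tnf and Tnfsf11 were each lower on both MYD88_L265P arrays than on both EV arrays, an order that 47.9% of all features also showed.

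Some calls of this comparison changed with the scaling and with single arrays. Quantile normalization, with the median feature at -0.035 and 6.62% of all features lower, left Lta (adjusted p = 0.0228), Ltb (adjusted p = 0.0419) and Tnf (adjusted p = 0.0164) called and Tnfsf11 just outside (-0.32, adjusted p = 0.0529). Fixing all arrays to a common median moved the median feature to -0.023 and the lower share of all features to 3.43%. Lta alone then remained called, with Ltb at -0.88 (adjusted p = 0.0585), Tnf at -0.38 (adjusted p = 0.0585) and Tnfsf11 at -0.25 (adjusted p = 0.126). With an array left out, 0 of the 7 were called without MYD88_L265P replicate 1 or 2, 2 without EV replicate 1, 1 without EV replicate 2 and 3 without either IKK_K171E array. The fold changes of Lta, Ltb, Tnf and Tnfsf11 stayed negative in every one of these fits (Lta -1.36 to -0.69, Ltb -1.40 to -0.54, Tnf -0.52 to -0.41, Tnfsf11 -0.35 to -0.32).

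**Figure D1:**
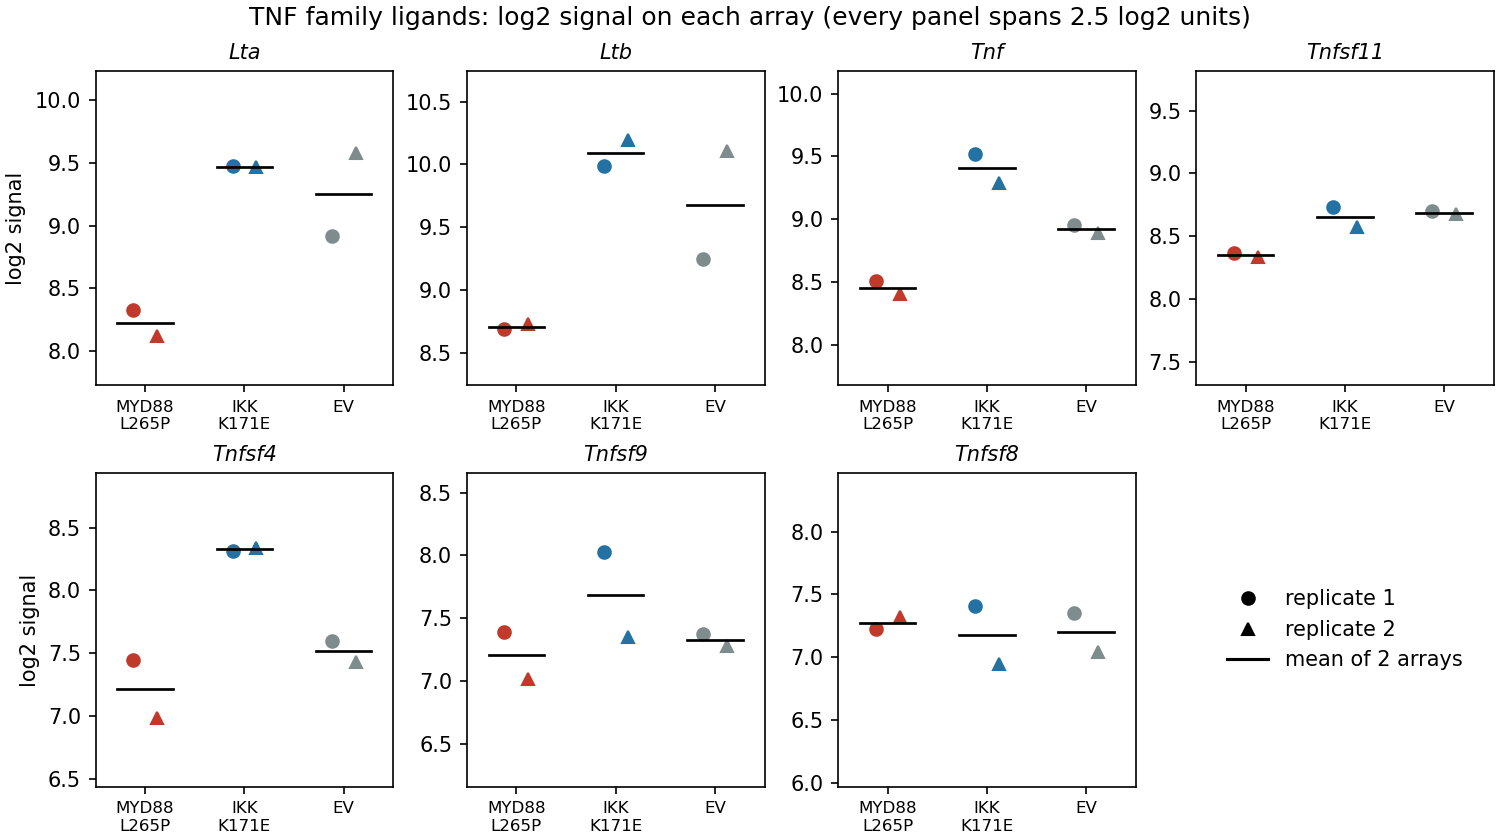
Log2 signal of the 7 ligand genes on each array, by group, with circles for replicate 1, triangles for replicate 2 and a bar for the mean of both arrays. Every panel spans 2.5 log2 units around the gene's own mean. The MYD88_L265P arrays are lowest for Lta, Ltb, Tnf and Tnfsf11, the IKK_K171E arrays are highest for Tnf and Tnfsf4, and the EV arrays of Lta and Ltb lie far apart.

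IKK_K171E was set against the EV arrays that also served MYD88_L265P, to ask what the mutant kinase does. None of the 7 genes passed the adjusted threshold, and Tnfsf4 and Tnf came nearest, both higher in IKK_K171E. limma called 0 of 7 in either direction, and 2 of 7 had an unadjusted p under 0.05, both higher. Among all features 0.956% were called higher and 0.413% lower, and at least 3630 of the 21542 had an unadjusted p under 0.05. The median log2 fold change of the 7 genes was 0.36 and that of all features -0.037.

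Tnfsf4, which gives T cells the OX40 signal, had 8.32 and 8.34 in IKK_K171E, against 7.60 and 7.43 in EV. The groups were well separated, and the log2 fold change was 0.81 (SE 0.15, 95% interval 0.45 to 1.17, adjusted p = 0.0574), with 98.8% of all features below it. It passed with a mean-variance trend (adjusted p = 0.0455), with the replicate number as a block (adjusted p = 0.0331) and after quantile normalization (0.84, adjusted p = 0.0407). It did not pass with a common median (adjusted p = 0.0564), array weights (adjusted p = 0.108), features of low signal left out (adjusted p = 0.0518), all features tested (adjusted p = 0.0767) or only the arrays of both groups (adjusted p = 0.0634), nor in any of the 6 fits with an array left out (adjusted p from 0.0634 to 0.280). Tnf had 9.52 and 9.29 in IKK_K171E, against 8.96 and 8.89 in EV, a log2 fold change of 0.48 (SE 0.11, adjusted p = 0.0848). Both genes were higher on each IKK_K171E array than on each EV array, which 17.6% of all features also showed.

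The lymphotoxin genes in IKK_K171E lay within the range of the EV arrays or close to it. Lta had 9.47 and 9.47 in IKK_K171E, between the EV arrays at 8.92 and 9.58. Ltb had 9.99 and 10.20 in IKK_K171E, against 9.24 and 10.11 in EV. The fold changes were 0.22 for Lta (95% interval -0.25 to 0.70, adjusted p = 0.632) and 0.42 for Ltb (95% interval -0.17 to 1.00, adjusted p = 0.454). Without EV replicate 1 they were -0.11 and -0.016, and without EV replicate 2 they were 0.55 and 0.85.

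For Tnfsf9, the gene of 4-1BB ligand, the IKK_K171E arrays themselves disagreed. They read 8.03 and 7.35, a gap larger than in all but 0.840% of features, against 7.37 and 7.28 in EV, and the log2 fold change of 0.36 (adjusted p = 0.468) was 0.021 without IKK_K171E replicate 1. Tnfsf8 had 7.41 and 6.95 in IKK_K171E, against 7.35 and 7.04 in EV (-0.017, adjusted p = 0.973). Tnfsf11 had 8.73 and 8.57 in IKK_K171E, against 8.70 and 8.68 in EV (-0.035, adjusted p = 0.891). For these last genes the groups overlapped.

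The constructs were then set against each other, using the same MYD88_L265P and IKK_K171E arrays as above, so that these values are not independent of the comparisons with EV. Lta, Ltb, Tnf and Tnfsf4 were lower in MYD88_L265P than in IKK_K171E, each by about 1 log2 unit or more. limma called 4 of 7 lower and 0 higher (also 0 higher at an unadjusted p under 0.05), beside 0.877% of all features lower and 0.873% higher. Tnfsf8, Tnfsf9 and Tnfsf11 did not pass. The median of the 7 genes was -0.95, and that of all features -0.054.

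Ltb showed the widest difference of the 7, at 8.69 and 8.73 in MYD88_L265P, against 9.99 and 10.20 in IKK_K171E. The log2 fold change was -1.38 (SE 0.25, adjusted p = 0.0464), and 0.0836% of all features had a lower one. Lta had 8.32 and 8.12 in MYD88_L265P, against 9.47 and 9.47 in IKK_K171E, a fold change of -1.25 (SE 0.20, adjusted p = 0.0350). The widely spaced EV arrays do not enter these differences of means, although they do enter the pooled spread.

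Tnfsf4 had 7.45 and 6.99 in MYD88_L265P, against 8.32 and 8.34 in IKK_K171E, a log2 fold change of -1.11 (SE 0.15, adjusted p = 0.0213). Tnf had 8.51 and 8.40 in MYD88_L265P, against 9.52 and 9.29 in IKK_K171E, a log2 fold change of -0.95 (SE 0.11) with the lowest adjusted p of the 7 (0.0152). For Tnf the EV arrays lay between the other groups, and for Tnfsf4 they lay close to MYD88_L265P replicate 1. Tnfsf11 was lower on both MYD88_L265P arrays by a fold change of -0.30 that missed the threshold (adjusted p = 0.162), Tnfsf9 had -0.48 (adjusted p = 0.283) and Tnfsf8 had 0.094 (adjusted p = 0.767). Groups that did not overlap, with MYD88_L265P lower, were seen for Lta, Ltb, Tnf, Tnfsf4 and Tnfsf11 and for 36.1% of all features.

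Leaving out an array removed most of these calls: 0 of the 7 were called without IKK_K171E replicate 1, without IKK_K171E replicate 2 and without MYD88_L265P replicate 2, 1 (Tnfsf4) without MYD88_L265P replicate 1, and 4 without either EV array. The fold changes stayed between -1.35 and -1.15 for Lta, -1.49 and -1.28 for Ltb, -1.07 and -0.83 for Tnf, and -1.34 and -0.88 for Tnfsf4. Ltb missed the threshold with a common median (adjusted p = 0.0572), and also after quantile normalization (adjusted p = 0.0521).

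**Figure D2:**
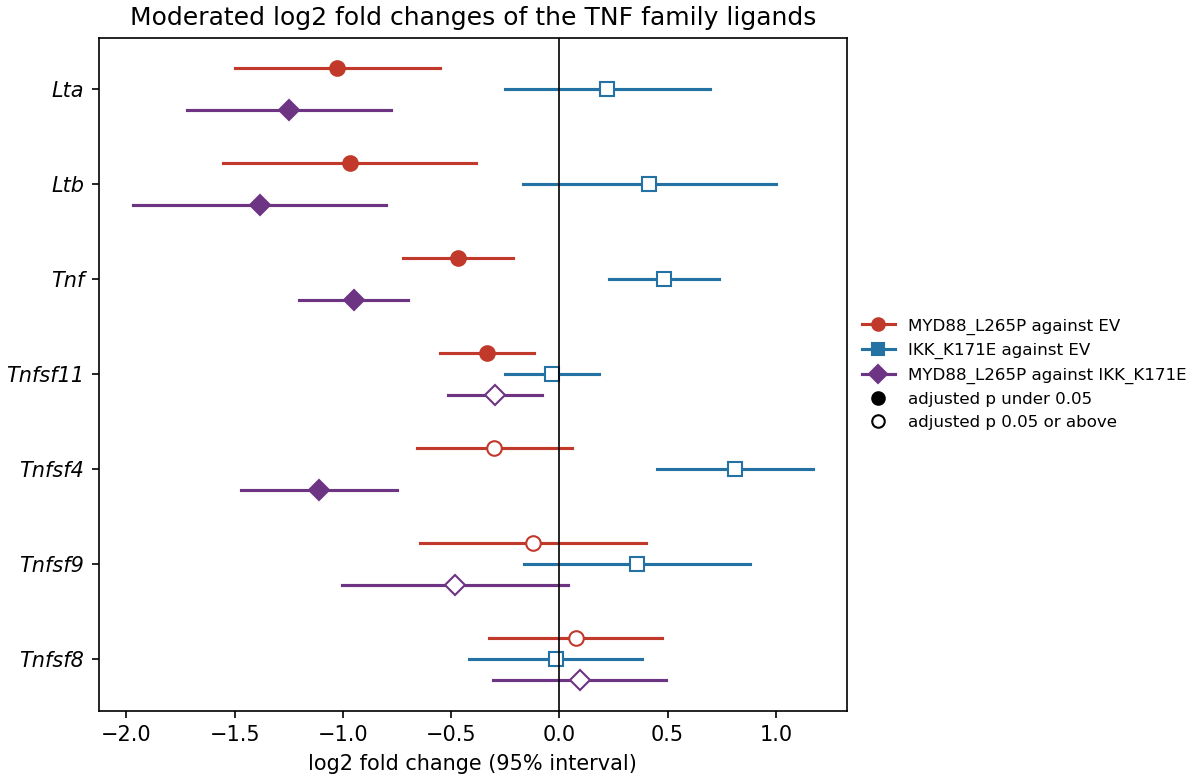
Log2 fold changes of the 7 ligand genes in the 3 comparisons, with 95% intervals from the moderated limma fit. Filled symbols mark an adjusted p under 0.05. Lta, Ltb and Tnf are filled in both comparisons of MYD88_L265P, Tnfsf4 in MYD88_L265P against IKK_K171E, Tnfsf11 in MYD88_L265P against EV, and no symbol of IKK_K171E against EV is filled.

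Tnf averaged 8.45 (SD 0.077) in MYD88_L265P, 9.41 (SD 0.17) in IKK_K171E and 8.92 (SD 0.046) in EV (n = 2 each), with the EV mean between those of the mutants. Its increase in IKK_K171E over EV was not called (limma adjusted p = 0.0848), and its fall in MYD88_L265P against EV lost its call with a common median. Tnfsf4 averaged 7.22 (SD 0.32) in MYD88_L265P, 8.33 (SD 0.015) in IKK_K171E and 7.52 (SD 0.12) in EV. The MYD88_L265P and EV means of Tnfsf4 did not differ beyond the spread of the MYD88_L265P arrays. Lta averaged 8.22 in MYD88_L265P, 9.47 in IKK_K171E and 9.25 in EV, and Ltb 8.71, 10.09 and 9.68. MYD88_L265P was lowest, but the IKK_K171E and EV means of Lta and Ltb did not differ beyond the spread of the EV arrays (SD 0.47 and 0.61, n = 2). Tnfsf11 had its lowest mean in MYD88_L265P (8.35), with IKK_K171E (8.65) and EV (8.69) not distinguished. The means of Tnfsf8 (7.27 in MYD88_L265P, 7.18 in IKK_K171E, 7.20 in EV) and Tnfsf9 (7.21, 7.69 and 7.33 in the same groups) could not be ordered beyond their spread.

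The genes whose profiles over the 6 arrays were nearest to those of the called ligand genes were found by the root mean square difference, on the log2 scale, after centring each gene on its own mean. Lta was nearest to Cd300lf (0.090), a receptor gene of the CD300 family, then to Icosl (0.14), the ligand of the T cell costimulator ICOS, and to Ltb (0.14). Ltb in turn was nearest to Lta (0.14), Icosl (0.15) and Cd300lf (0.22). For scale, the SD over the arrays was 0.64 for Lta and 0.70 for Ltb. Tnf was nearest to Tyrobp (0.085), the gene of the signalling adaptor DAP12 of myeloid and NK cells, to Prkch (0.087), a protein kinase C gene, and to Ebi3 (0.093), a subunit gene of interleukin 27. Tnfsf4 was nearest to Ptafr (0.11), the platelet-activating factor receptor gene, to Tyrobp (0.13) and to Csf2rb2 (0.14), a receptor subunit gene for interleukin 3 in mice. Tnfsf11 was nearest to Dnajc5b (0.020), Gm10619 (0.020) and Gpr142 (0.021), beside an SD of its own of 0.17.

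The position of the genes was described with the RefSeq gene order on GRCm38.p6, a step chosen after the values were seen. On the Ltb side, the next protein-coding gene is Lst1, known from leukocytes. It fell in MYD88_L265P against EV (-0.38, adjusted p = 0.0325) and against IKK_K171E (-0.76, adjusted p = 0.0152), and had 0.38 in IKK_K171E against EV (adjusted p = 0.0911). Aif1, beyond it, which encodes an actin-binding protein of macrophages, rose in IKK_K171E over EV (0.67, adjusted p = 0.0383) and had 0.15 in MYD88_L265P over EV (adjusted p = 0.301). Further out, Prrc2a, Bag6 and Apom passed in no comparison, with fold changes between -0.10 and 0.38. On the Lta side, Nfkbil1, Atp6v1g2 and Ddx39b passed in no comparison, with Atp6v1g2 at -0.33 in MYD88_L265P over EV (adjusted p = 0.0511). Ltb, Tnf and Lta, around which this stretch was laid, were described above, and Ltb and Tnf lost their call against EV with a common median. Of the measured genes around them, Lst1 alone was called lower in MYD88_L265P than in EV and the other 7 were not, beside 7.33% of all features.

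**Figure D3:**
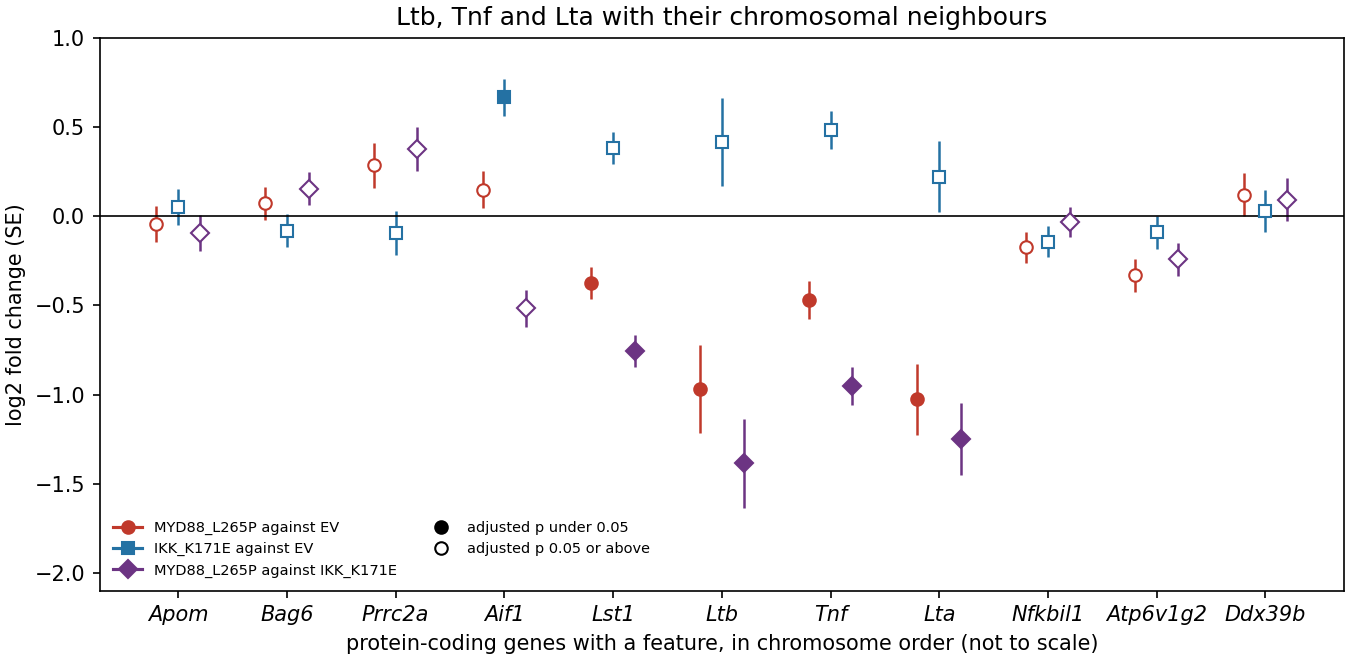
Log2 fold changes (bars, SE) of Ltb, Tnf, Lta and the measured protein-coding genes next to them, in chromosome order and not to scale. Filled symbols mark an adjusted p under 0.05. Lst1, Ltb, Tnf and Lta are filled and below 0 in both comparisons of MYD88_L265P, and Aif1 is filled above 0 in IKK_K171E against EV.

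Tnfsf4, Tnfsf8 and Tnfsf9 also have family members as neighbours. Tnfsf4 lies beside Tnfsf18 (GITR ligand), with Fasl (Fas ligand) next. In IKK_K171E over EV, where Tnfsf4 had 0.81, Tnfsf18 had -0.26 (adjusted p = 0.384) and Fasl -0.050 (adjusted p = 0.836). Tnfsf9 lies beside Cd70 (CD27 ligand) and Tnfsf14 (LIGHT), and Tnfsf8 beside Tnfsf15 (TL1A). Cd70, Tnfsf14 and Tnfsf15 passed in no comparison, with fold changes between -0.23 and 0.17.

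Among the 11 ligands of the family outside the 7, 9 were measured. In MYD88_L265P against EV, 2 fell and 0 rose, beside 7.33% of all features lower and 9.32% higher. At an unadjusted p under 0.05, limma gave 3 lower and 0 higher, beside at least 8215 of all 21542 features in either direction. Fasl had 5.99 and 6.05 in MYD88_L265P, against 6.48 and 6.34 in EV (-0.39, adjusted p = 0.0323), and missed the threshold with a common median (-0.30, adjusted p = 0.0668) and by more under quantile normalization (-0.25, adjusted p = 0.157). The mean of Fasl over the 6 arrays (6.26) lay above that of only 8.75% of all features, a signal that cannot be told from background here. Eda, the ectodysplasin gene, had 7.35 and 7.35 in MYD88_L265P, against 7.82 and 7.74 in EV (-0.43, adjusted p = 0.0262), and missed the threshold under quantile normalization (-0.30, adjusted p = 0.0606). limma called 0 of the 9 in IKK_K171E against EV (0 at an unadjusted p under 0.05), beside 0.956% of all features higher and 0.413% lower. It called 0 in MYD88_L265P against IKK_K171E, beside 0.877% of all features lower and 0.873% higher. There 2 of the 9 had an unadjusted p under 0.05, as had at least 4094 of all 21542 features. The genes of CD40 ligand (Cd40lg), TRAIL (Tnfsf10) and BAFF (Tnfsf13b) passed in no comparison. The median over the 9 was -0.10 in MYD88_L265P over EV, beside -0.11 for all features.

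All 9 receptors of the 7 ligands were measured. In MYD88_L265P against EV, 1 was called lower and 0 higher, beside 7.33% of all features lower and 9.32% higher. The share called was thus near that of all features. At an unadjusted p under 0.05, limma gave 4 lower and 1 higher, beside at least 8215 of all 21542 features in either direction. Tnfrsf9, the receptor 4-1BB for the product of Tnfsf9, had 8.02 and 7.99 in MYD88_L265P, 8.50 and 8.53 in IKK_K171E, and 8.38 and 8.41 in EV. It fell in MYD88_L265P against EV (-0.39, SE 0.082, adjusted p = 0.0238) and against IKK_K171E (-0.51, SE 0.082, adjusted p = 0.0350), and the second call was lost with a common median (-0.44, adjusted p = 0.0521) and also under quantile normalization (-0.45, adjusted p = 0.0507). Ltbr, the lymphotoxin beta receptor gene, had 7.52 and 7.52 in MYD88_L265P, against 7.79 and 7.80 in EV (-0.28, adjusted p = 0.0697). Tnfrsf4, the OX40 gene, had -0.39 (adjusted p = 0.0739) and Tnfrsf14, the gene of the herpesvirus entry mediator, -0.22 (adjusted p = 0.0995) in the same comparison.

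The genes of both TNF receptors passed in no comparison. Tnfrsf1a had log2 fold changes of -0.017 in MYD88_L265P over EV and 0.16 in IKK_K171E over EV, and Tnfrsf1b had 0.10 and 0.34 (unadjusted p = 0.0436 and adjusted p = 0.276 by limma for the last). Tnfrsf8, the CD30 gene, had 0.26 and 0.23, Tnfrsf11a, the RANK gene, 0.24 and 0.19, and Tnfrsf11b, the gene of the decoy receptor osteoprotegerin, -0.17 and -0.038. None of these passed. In IKK_K171E over EV limma called 0 of the 9 receptors, beside 0.956% of all features higher and 0.413% lower. At an unadjusted p under 0.05 it gave 1, Tnfrsf1b, beside at least 3630 of all 21542 features.

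Of 18 genes of receptor adaptors and the noncanonical NF-kB pathway, 16 were measured. In MYD88_L265P against EV, 3 were called lower and 0 higher, beside 7.33% of all features lower and 9.32% higher. At an unadjusted p under 0.05, limma gave 8 lower and 0 higher, beside at least 8215 of all 21542 features in either direction. Traf1, an adaptor gene that NF-kB induces, had -0.62 (adjusted p = 0.0145), Traf5 had -0.67 (adjusted p = 0.0125) and Birc2, the gene of the ubiquitin ligase cIAP1, -0.60 (adjusted p = 0.0174). Under quantile normalization Cyld (-0.36, adjusted p = 0.0409), Otulin (-0.59, adjusted p = 0.0482) and Rnf31 (-0.45, adjusted p = 0.0205), whose products make or remove ubiquitin chains, were called lower as well. Against IKK_K171E, 3 were lower in MYD88_L265P and 0 higher, beside 0.877% and 0.873% of all features: Birc2 (-0.86, adjusted p = 0.0196), Traf1 (-0.77, adjusted p = 0.0236) and Nfkb2 (-0.65, adjusted p = 0.0254), the precursor of the NF-kB subunit p52. In IKK_K171E over EV limma called 0 of 16, beside 0.956% of all features higher and 0.413% lower. At an unadjusted p under 0.05 it gave 4 of 16, beside at least 3630 of all 21542 features. Nfkb2 had 0.48 in this comparison (adjusted p = 0.0642). It passed under quantile normalization (adjusted p = 0.0425) and not with a common median (adjusted p = 0.0657).

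All 16 genes of ligand shedding and of mRNA decay were measured, and in MYD88_L265P against EV 1 was lower and 1 higher, beside 7.33% of all features lower and 9.32% higher. Zfp36l1, which encodes a protein that binds AU-rich elements of cytokine mRNAs and promotes their decay, fell in MYD88_L265P against EV (-0.88, SE 0.11, adjusted p = 0.00702) and against IKK_K171E (-0.68, adjusted p = 0.0392). Elavl1, the gene of the stabilising protein HuR, rose in MYD88_L265P over EV (0.39, adjusted p = 0.0475), and did not pass under quantile normalization (0.26, adjusted p = 0.105). In that setting Rc3h2, the gene of an RNA-binding protein, was called lower (-0.45, adjusted p = 0.0499). With a common median Rc3h2 was not called (-0.22, adjusted p = 0.195). Timp3, an inhibitor of the TNF sheddase, was lower in MYD88_L265P than in IKK_K171E (-0.51, adjusted p = 0.0386), a call that ended under quantile normalization and with a common median, as did that of Zfp36l1 with a common median (adjusted p = 0.0559). The sheddase gene Adam17 and the gene of the best-known decay factor of Tnf mRNA, Zfp36, passed in no comparison. limma called 0 of the 16 in IKK_K171E against EV, beside 0.956% of all features higher and 0.413% lower. At an unadjusted p under 0.05 it gave 3 of the 16, beside at least 3630 of all 21542 features. Timp3 had 0.45 in this comparison (adjusted p = 0.0575). It passed under quantile normalization (adjusted p = 0.0473) and not with a common median (adjusted p = 0.0598).

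**Figure D4:**
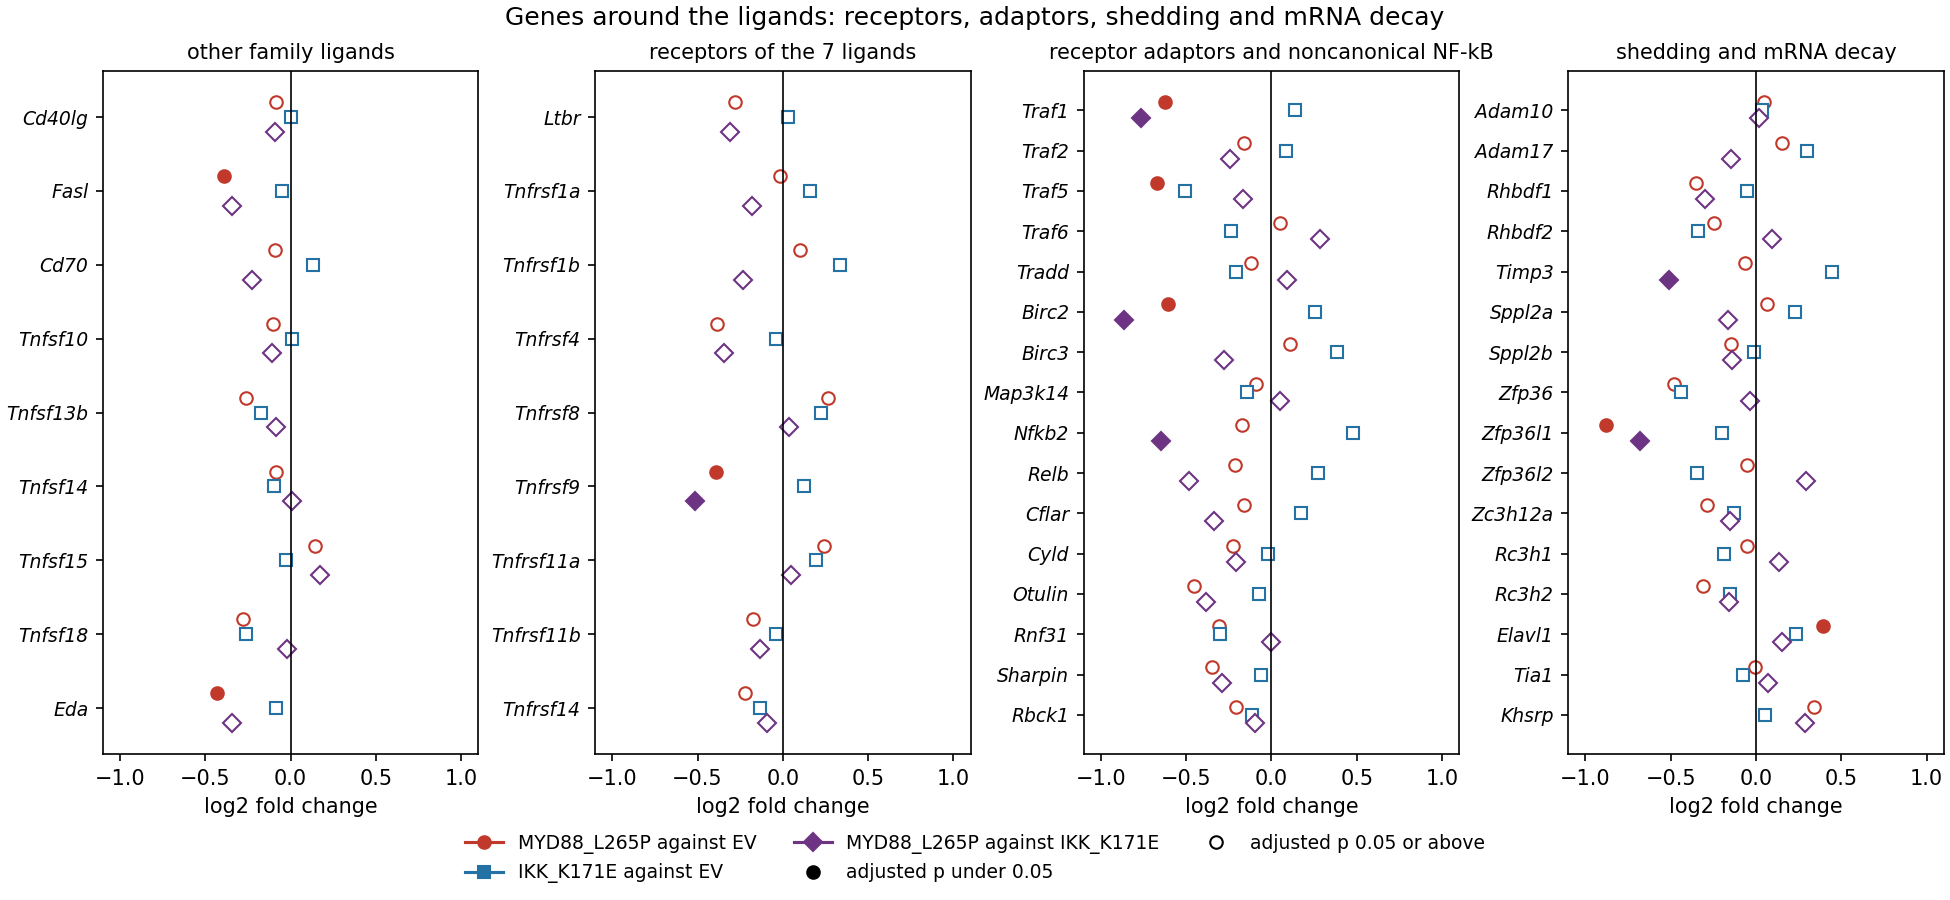
Log2 fold changes of other family ligands, the receptors of the 7 ligands, receptor adaptors with the noncanonical NF-kB genes, and genes of shedding and mRNA decay, in the 3 comparisons. Filled symbols mark an adjusted p under 0.05. Filled symbols stand for Fasl, Eda, Tnfrsf9, Traf1, Traf5, Birc2, Nfkb2, Timp3, Zfp36l1 and Elavl1, and Elavl1 alone lies above 0.

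Markers of other cell types that make these ligands differed between the groups as well. The summed signal of 10 monocyte and macrophage genes, on the log2 scale, was 12.73 to 12.96 in MYD88_L265P, 13.68 to 13.88 in IKK_K171E and 12.91 to 13.23 in EV, and of the 10, Csf1r rose (1.22) and Adgre1 fell (-1.17) in IKK_K171E against EV. Adgre1 also fell in MYD88_L265P against EV (-1.78), and Ccr2 was lower in MYD88_L265P than in IKK_K171E (-0.87). The sum of 8 dendritic cell genes was 10.85 to 10.96 in MYD88_L265P, 11.80 to 11.84 in IKK_K171E and 11.40 on both EV arrays, and 3 of the 8, Flt3 (-1.63), Itgax (-0.69) and Zbtb46 (-0.58), were lower in MYD88_L265P than in IKK_K171E. Flt3 (-0.88) and Zbtb46 (-0.56) fell in MYD88_L265P against EV, and Flt3 (0.75) and Itgax (0.68) rose in IKK_K171E against EV. Among all features 7.33% were called lower in MYD88_L265P against EV and 0.877% lower against IKK_K171E. In IKK_K171E against EV, 0.956% were called higher and 0.413% lower. By mean summed signal both lists were highest in IKK_K171E, as Tnf and Tnfsf4 were, and lowest in MYD88_L265P. The monocyte ranges of MYD88_L265P and EV overlapped. The sums add linear signal, so that the brightest genes weigh most, here Lyz2 (mean 12.93 in IKK_K171E) and Flt3 (10.93). In IKK_K171E over EV the median log2 fold change of the monocyte genes was 0.61, with 9 of 10 above 0. For the dendritic cell genes it was 0.063, with 6 of 8 above 0. In MYD88_L265P over EV these medians were 0.027 (5 of 10 above 0) and -0.22 (0 of 8). The part of these marker genes in the results of Tnf and Tnfsf4 was not tested.

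T cells are a further source of lymphotoxins and of RANK ligand. The sum of 11 T cell genes was 11.40 on both MYD88_L265P arrays, 11.69 to 11.83 in IKK_K171E and 11.59 to 11.68 in EV. Of the 11, 3 fell in MYD88_L265P against EV, beside 7.33% of all features. They were Cd3e (-0.47, limma adjusted p = 0.0230), Cd3g (-0.67, adjusted p = 0.0476) and Cd4 (-0.37, adjusted p = 0.0429), with Cd3g and Cd4 just inside the threshold. Against IKK_K171E 2 were lower in MYD88_L265P, Cd3e (-0.61) and Cd3g (-1.14), beside 0.877% of all features. Calls of marker genes, of any cell type, were not examined under the other scalings. The 7 NK and innate lymphoid genes summed to 9.72 to 9.87 in MYD88_L265P, 9.96 to 10.18 in IKK_K171E and 10.00 to 10.07 in EV. Of the 7, 1 was called lower in MYD88_L265P against EV, the NK receptor gene Klrd1 (-1.16, adjusted p = 0.0199), beside 7.33% of all features. The median log2 fold change of the 7 was -0.11 there, and that of all features was -0.11. The 6 stromal and endothelial genes summed to 11.54 to 11.69, 11.64 to 11.90 and 11.94 to 12.25 in the same groups. An array signal has no true zero, so that none of these markers can be called absent, and their part in the results of Lta, Ltb and Tnfsf11 was not tested.

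**Figure D5:**
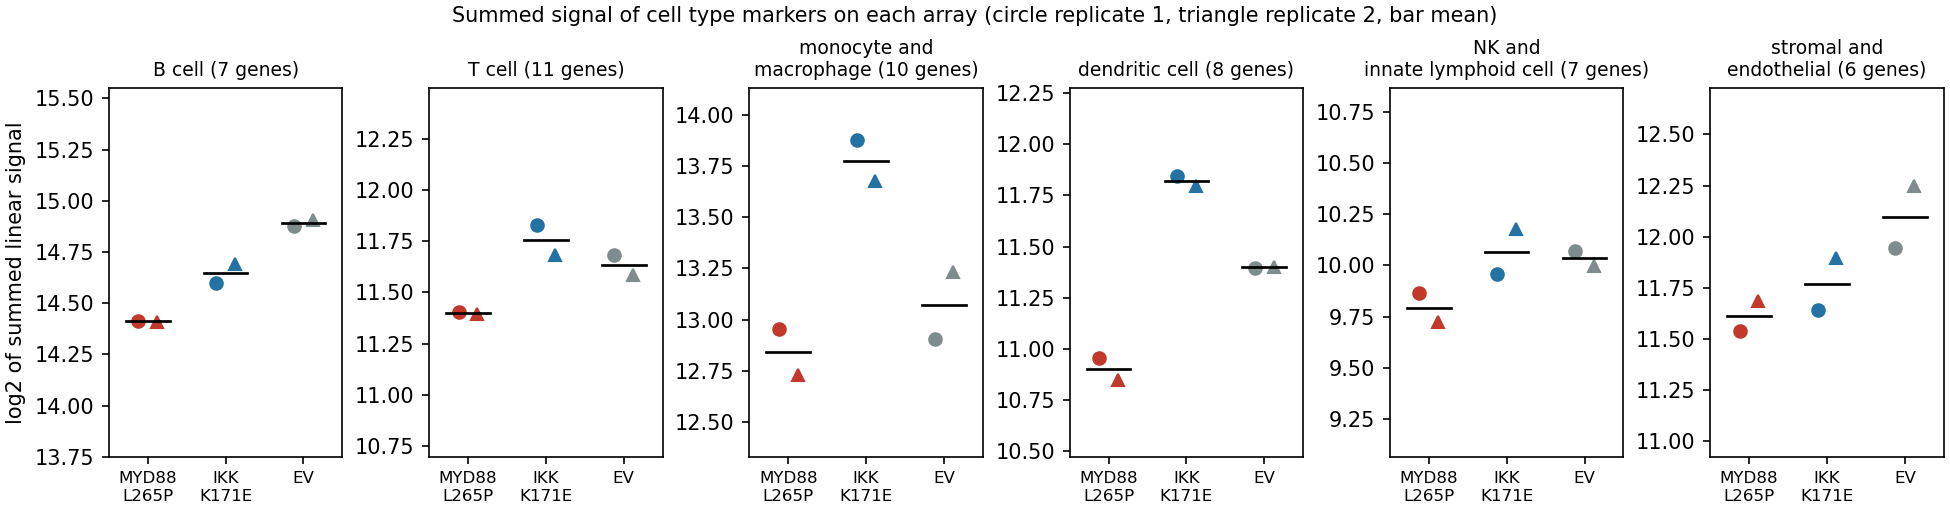
Summed linear signal of the marker genes of 6 cell types, on a log2 scale, on each array, with circles for replicate 1, triangles for replicate 2 and a bar for the mean. Every panel has the same span. The IKK_K171E arrays are highest for monocyte and macrophage genes and for dendritic cell genes. For T cell genes, IKK_K171E replicate 2 and EV replicate 1 lie together. The EV arrays are highest for B cell genes and for stromal and endothelial genes.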

How the data were processed

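Gene expression was measured on 6 Affymetrix mouse ST 1.0 arrays, 2 for each of 3 groups, grouped by the sample descriptions. The deposited values are log2 signals processed by the authors, whose processing notes name oligo and limma. Background correction, normalization, summarization and genome build are not given in the sources used here. Without detection p-values, a low signal cannot be told from background. Of 24743 features, 21542 had exactly 1 gene symbol (1522 had several, 1679 none). The RefSeq table held the Entrez identifiers of 21472 and left all their symbols as they were.

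All 6 arrays entered 1 linear model of group means (limma 3.58.1, R 4.3.3), and contrasts were moderated by empirical Bayes with 4.17 prior and 3 residual degrees of freedom. Two-sided p-values were adjusted over the 21542 features (Benjamini-Hochberg), with calls made where the adjusted p was under 0.05. The labels do not say whether replicates came from separate mice, so p-values measure the spread between these arrays. The procedure was tested on simulated data. The number of arrays limits the precision.

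The members and gene lists were chosen with earlier results of these data known. Named genes were the 7 ligands, their receptors, up to 5 called genes of each other list, the 3 nearest profiles of each called ligand, and the transduced genes. Cyld, Otulin, Rnf31 and Rc3h2 fall outside this rule and were named after their values were seen. A gene with several features was represented by its brightest. Other settings tried were a block for the replicate number, normalization, the variance model, features of low signal left out, the choice of features and of arrays, and a 2-fold threshold.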

Additional observations from a re-analysis of the deposited data

How the results depend on the processing

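The features called in MYD88_L265P against EV numbered 3586, of which 478 changed at least 2-fold, and 191 to 3554 with an array left out. The ligand genes called there numbered 4, and 1 with a common median, 2 with all features tested, 1 at 2-fold or more, and 0 to 3 with an array left out. The share of higher calls was 56.0%, and 77.7% with a common median. In IKK_K171E against EV the 295 features became 626 with the replicate block, 123 with array weights, 131 with all features tested, 51 with only the arrays of both groups, 88 at 2-fold or more, and 0 to 506 with an array left out (0 without IKK_K171E replicate 1, where limma gave 2355 at an unadjusted p under 0.05). The 0 ligand genes called there became 1, Tnfsf4, with the replicate block (adjusted p = 0.0331), under quantile normalization and with a mean-variance trend. In MYD88_L265P against IKK_K171E the 377 features became 592 with only the arrays of both groups, 118 at 2-fold or more, and 14 to 592 with an array left out. The share of higher calls was 49.9%, and 66.4% with a common median. The 4 ligand genes became 2 with all features tested, and 0 to 4 with an array left out.

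Fold changes of called ligand genes kept their sign under all alternatives run. They stayed called in 34 of 56 values in MYD88_L265P against EV and in 37 of 56 against IKK_K171E. Signs turned only for uncalled values. Under quantile normalization Tnfsf9 had 0.017 in MYD88_L265P over EV and Tnfsf8 0.021 in IKK_K171E over EV. With an array left out, in MYD88_L265P over EV, Tnfsf8 ran from -0.078 to 0.23 and Tnfsf9 from -0.31 to 0.066. In IKK_K171E over EV, Lta ran from -0.11 to 0.55, Ltb from -0.016 to 0.85, Tnfsf8 from -0.25 to 0.21 and Tnfsf11 from -0.11 to 0.043, and in MYD88_L265P over IKK_K171E Tnfsf8 ran from -0.14 to 0.32. The cause of these changes of sign was not tested. Fits with an array left out have fewer degrees of freedom, which bears on p-values and not on fold changes. Deviations of arrays with the same replicate number correlated at 0.10 to 0.21 between groups. The labels do not say that a number marks a shared animal or day, and the titles number the arrays otherwise. The replicate block changed the call of no other ligand gene. A group left with 1 array was assumed to vary like the others.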
